A study of Mus musculus with 6 samples.

Results

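Acyl-CoA thioesterases are the enzymes encoded by the Acot genes, and their transcripts were examined here in mouse dorsal skin after topical rebamipide. The 10 members were the rows of the deposited expression table named Acot1, Acot2, Acot3, Acot4, Acot7, Acot8, Acot9, Acot11, Acot12 and Acot13, out of 21959 genes in the table. They were grouped by where the enzyme mainly resides, with 4 cytosolic members (Acot1, Acot7, Acot11, Acot12), 3 mitochondrial members (Acot2, Acot9, Acot13) and 3 peroxisomal members (Acot3, Acot4, Acot8). The GO terms in the table place 7 of the 10 members in mitochondria, 6 in the cytosol and 3 in peroxisomes, so several carry more than 1 location.

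Full-thickness skin of the back was sequenced in bulk from 3 mice that received vehicle and 3 that received 3% rebamipide, a drug used against gastric ulcers and dry eye. All were 7-week-old male C57BL/6 mice, shaved on the back in telogen, the resting phase of the hair cycle. Both groups were dosed on the skin once a day for 7 days, the controls with 30% dipropylene glycol in 70% water. The comparison asks which transcripts differed between skin under the drug and skin under vehicle at a time meant to precede hair regrowth.

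Acyl-CoA thioesterases cut an acyl-CoA, the activated form of a fatty acid, into a free fatty acid and coenzyme A. They work against the acyl-CoA synthetases, and in each compartment they set how much acyl-CoA is left for oxidation, lipid synthesis or signalling. Acot1 to Acot6 are close relatives that arose by gene duplication, whereas Acot7 to Acot13 carry a different protein fold. Several members are known targets of the fatty acid receptor PPAR-alpha, and in skin the sites of high fatty acid turnover are the dermal fat, the sebaceous glands and the muscle layer under the fat.

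Vehicle libraries held 38676018 to 39915276 counts and rebamipide libraries 32709801 to 34706852, so a gene at 0 could hold up to 3 counts, or 0.0752 to 0.0917 CPM, which is the count scaled to the library total. Levels are given as FPKM, which is CPM divided also by gene length in kilobases, after scaling by edgeR's TMM factors. All other CPM, of single genes and of lists, are likewise TMM-scaled, whereas the expression filter uses library totals alone. At that scaling the middle gene of the 14875 tested had a log2 fold change of -0.175, or of -0.778 with total counts alone, so a member's change is read against those medians. The make-up of the libraries differed between the groups. Transcripts of mitochondrial DNA made up 2.59% to 5.36% of a vehicle library and 13.28% to 21.96% of a rebamipide library, and the 10 top genes 7.2% to 10.56% and 20.23% to 30.36%. Ucp1, the uncoupling protein of brown fat, had 0 counts in every vehicle library and 81048 to 220449 in every rebamipide library. A difference in the tissue that was sampled and an effect of treatment therefore cannot be told apart in any fold change given here. Rebamipide replicate 3 went furthest against the label of full-thickness skin, as it held 0 counts of Krt14 and 4 of Krt5, the keratins of basal epidermis, against 26099 and 50427 or more in every vehicle library. The summed CPM of 8 growing hair follicle genes was 23506, 12912 and 263.5 in the vehicle libraries and 1044.5, 0.66 and 0.23 in the rebamipide libraries, although all mice were shaved in telogen. Counts and calls are therefore given also without single libraries.

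Rebamipide-treated skin held more acyl-CoA thioesterase transcript than vehicle skin, and the rise was uneven across members. Among the members that passed the test, Acot11 had the largest fold change, followed by Acot2, Acot4 and Acot13, and Acot13 gained most in FPKM. With edgeR's quasi-likelihood test and Benjamini-Hochberg adjustment over all genes, these 4 of 10 members were higher (14.1% of all genes were called higher) and 0 of 10 were lower (6.51% of all genes). All 10 members passed the expression filter, Acot3 only through its rebamipide libraries, so that it had to differ. The median log2 fold change was 1.74 over the 10 and 1.23 over the 9 without Acot3, as a description. In 6 members (Acot11, Acot2, Acot9, Acot13, Acot3 and Acot4) every rebamipide library lay above every vehicle library at TMM scaling. Without Acot3 this held for 5 of 9 members, beside 24.5% of all genes. In Acot1 every rebamipide library lay below every vehicle library, as did 24% of all genes, and Acot7, Acot8 and Acot12 overlapped between groups. Without rebamipide replicate 3 the number called higher was again 4. It was 3 without vehicle replicate 1, 4 without vehicle replicate 3 and 5 without rebamipide replicate 1. It fell to 1 without rebamipide replicate 2, where Acot11 was the 1 gene called of all 15335 tested and 4062 had an unadjusted p-value under 0.05. It fell to 0 without vehicle replicate 2, where edgeR called 0 genes of any kind and 4116 had an unadjusted p-value under 0.05. Without either of these libraries DESeq2 called 4 members higher and limma-voom 2. In bulk tissue, fewer cells of a type and less RNA per cell cannot be told apart.

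**Figure D1:**
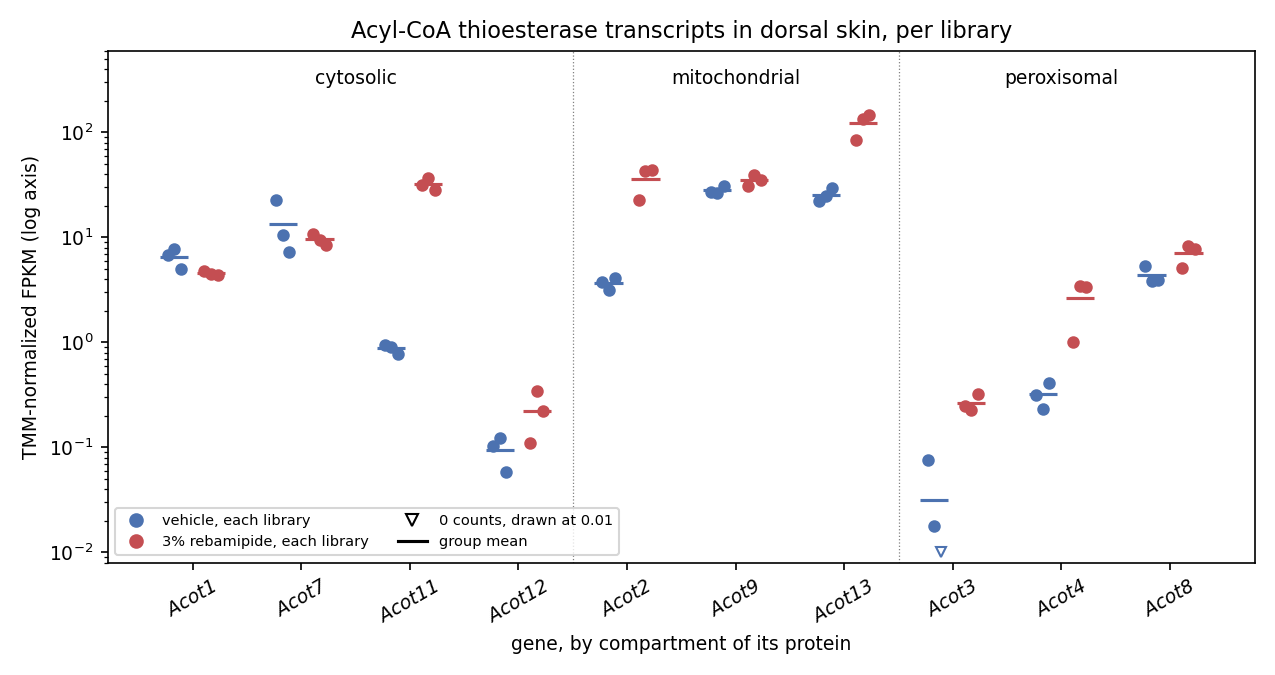
TMM-normalized FPKM (log axis) of the 10 acyl-CoA thioesterase genes in each of the 3 vehicle (blue) and 3 rebamipide (red) libraries, with horizontal lines at the group means and an open triangle for 0 counts, drawn at 0.01. Acot11 moves from below 1 FPKM in the vehicle libraries to 28.4 FPKM or more in the rebamipide libraries.

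**Figure D2:**
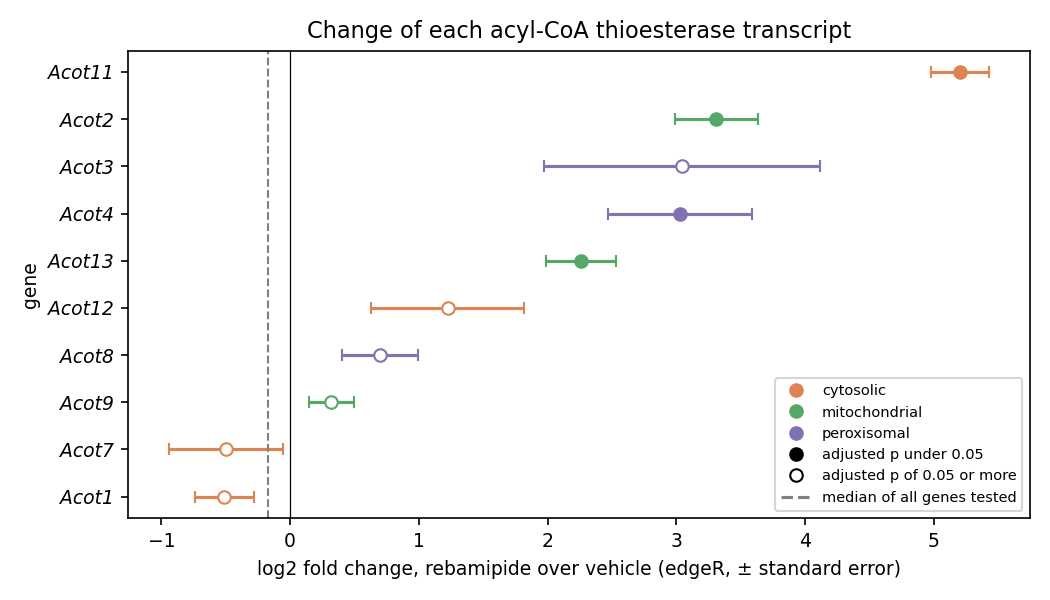
log2 fold change of each member, rebamipide over vehicle, from edgeR with the standard error as bars, coloured by compartment and filled where the adjusted p-value was under 0.05. Acot11 stands at 5.20, Acot1 and Acot7 stand near -0.5, and the dashed line marks the median of all genes at -0.175.

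Marker genes of several other tissues moved with the groups. Their calls stand beside 14.1% of all genes called higher and 6.51% called lower. The summed CPM of 8 brown adipocyte markers was 211 to 385 under vehicle and 5029 to 12767 under rebamipide, with 5 of 8 called higher. Ucp1 was at 0 in every vehicle library and passed the filter through its rebamipide libraries alone. Most of the vehicle sum was Elovl3, which lay below every vehicle library under rebamipide (log2 fold change -1.45, adjusted p = 0.0575), and Zic1 stood at 0.09 (adjusted p = 0.89). The sum of 12 general adipocyte markers went from 2504 to 6939.8 CPM in vehicle to 15313 to 30641 CPM in rebamipide, with 8 called higher. In that list Lep, Retn and Cfd overlapped between groups, with log2 fold changes of -0.53, -0.23 and 0.34. The 6 slow muscle markers summed to 2.07 to 13.5 CPM in vehicle and 290.1, 129.4 and 7.02 CPM in rebamipide, so that replicate 3 lay within the vehicle range. In that list 4 genes were called higher, 3 of which reached the filter level in at most 1 vehicle library. The 6 basal keratinocyte markers summed to 2454 to 3979 CPM in vehicle and 131 to 1141 CPM in rebamipide, with 0 of 6 called and 5 of 6 without overlap on the lower side, beside 24% of all genes. Of the 131 CPM in rebamipide replicate 3, Itga6 made up 129, and Itga6 overlapped between groups. Endothelial markers summed to 219 to 516 CPM in vehicle and 1046 to 1519.5 CPM in rebamipide, with 4 of 7 called higher, and blood markers to 42.4 to 199.9 CPM and 345 to 809 CPM, with 3 of 5 called higher. The part of these tissues in the members' changes was not tested.

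Among the cytosolic members, 1 of 4 was called higher, beside 14.1% of all genes, and the 4 did not move together, with log2 fold changes from -0.51 to 5.20. Acot11 (ENSMUSG00000034853, chr4:106601752-106662195, minus strand, as the table lists it) encodes a long-chain acyl-CoA thioesterase with a lipid-binding START domain. It was first described as a transcript that cold induces in brown fat, where the enzyme limits fatty acid oxidation. It had 287, 271 and 218 counts in the vehicle libraries and 5788, 5754 and 4501 counts in the rebamipide libraries, or 0.949, 0.909 and 0.770 FPKM against 31.5, 37.0 and 28.4 FPKM. All 3 treated libraries stood far above all 3 controls, and the replicates of each group lay close together. The group means were 0.876 ± 0.0942 and 32.3 ± 4.39 FPKM (SD, n = 3), a 36.8-fold difference, with a log2 fold change of 5.20 (SE 0.22, adjusted p = 0.00388). Leaving out each library in turn gave log2 fold changes from 5.10 to 5.30. Acot11 spans 3738 bases of Fam151a on the other strand, and Fam151a had 6 counts in 1 vehicle library and 0 in the others.

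The other cytosolic members did not pass the test. Acot1 (ENSMUSG00000072949, chr12:84056264-84065145, plus strand), a long-chain acyl-CoA thioesterase best known from fasted liver and heart, had 6.78, 7.68 and 4.98 FPKM in the vehicle libraries and 4.76, 4.45 and 4.43 FPKM in the rebamipide libraries. The treated libraries were all below the controls, but the lowest control was near them. The log2 fold change was -0.51 (SE 0.23, adjusted p = 0.15), and with total counts alone it was -1.13 (adjusted p = 0.0263). Acot7 (ENSMUSG00000028937, chr4:152262591-152356312, plus strand), a long-chain thioesterase that is abundant in neurons, had 22.8, 10.5 and 7.21 FPKM in the vehicle libraries and 10.7, 9.49 and 8.55 FPKM in the rebamipide libraries. Its vehicle libraries spread widely on both sides of the treated ones. The log2 fold change of -0.50 (SE 0.44, adjusted p = 0.422) rested on vehicle replicate 1, without which it was 0.09. The growing hair follicle sum ranked the vehicle libraries in the same order as Acot7, and its part in the value was not tested. Acot12 (ENSMUSG00000021620, chr13:91889631-91934267, plus strand), the acetyl-CoA hydrolase of liver, was near the limit of detection at 9 to 20 counts in vehicle and 11 to 29 counts in rebamipide, with overlapping groups.

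Of the 3 mitochondrial members 2 passed the test, Acot2 and Acot13, beside 14.1% of all genes called higher. At TMM scaling all 3 had every rebamipide library above every vehicle library, as did 24.5% of all genes, but Acot9 did so at that scaling and not in the FPKM as deposited. Acot2 (ENSMUSG00000021226, chr12:84034635-84040647, plus strand) encodes the long-chain acyl-CoA thioesterase of the mitochondrial matrix. It had 410, 343 and 419 counts in the vehicle libraries and 1506, 2414 and 2514 counts in the rebamipide libraries, or 3.74, 3.17 and 4.08 FPKM against 22.6, 42.8 and 43.7 FPKM. Rebamipide replicate 1 was the lowest of the treated libraries and still far above the controls. The mean rose 9.92-fold, from 3.66 ± 0.459 to 36.4 ± 11.9 FPKM (SD, n = 3), with a log2 fold change of 3.31 (SE 0.32, adjusted p = 0.00939).

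Acot13 (ENSMUSG00000006717, chr13:25001931-25015523, minus strand) encodes a small thioesterase found at mitochondria, which binds the phosphatidylcholine transfer protein. It had 829, 910 and 1033 counts in the vehicle libraries and 1906, 2586 and 2885 counts in the rebamipide libraries, or 22.3, 24.8 and 29.7 FPKM against 84.4, 135.5 and 148.0 FPKM. It was abundant in both groups and the most abundant member in all 3 treated libraries. The mean rose 4.79-fold, from 25.6 ± 3.75 to 122.6 ± 33.7 FPKM (SD, n = 3), with a log2 fold change of 2.26 (SE 0.27, adjusted p = 0.00958). Acot2 and Acot13 each lost the edgeR call without rebamipide replicate 2 (adjusted p = 0.0573 for both) and without vehicle replicate 2 (0.0747 for both), with log2 fold changes of 3.18 and 2.19, and 3.18 and 2.20.

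Acot9 (ENSMUSG00000025287, chrX:154045439-154080650, plus strand), a mitochondrial thioesterase of broad substrate range, had 27.3, 26.8 and 31.0 FPKM in the vehicle libraries and 31.2, 39.6 and 35.4 FPKM in the rebamipide libraries. The treated libraries were above the controls by a narrow margin. Its log2 fold change was 0.32 (SE 0.17, adjusted p = 0.211) at TMM scaling and -0.31 with total counts alone. In the FPKM as deposited every treated library lay below every control, at 29.0, 29.5 and 26.7 against 34.8, 33.0 and 37.4, so its direction depended on the scaling.

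The peroxisomal members were low in vehicle skin apart from Acot8, and 1 of 3 passed the test, beside 14.1% of all genes called higher. Acot4 (ENSMUSG00000052392, chr12:84085153-84095375, plus strand), the peroxisomal thioesterase for succinyl-CoA, had 106, 77 and 129 counts in the vehicle libraries and 203, 596 and 596 counts in the rebamipide libraries. In FPKM these were 0.318, 0.234 and 0.413 against 1.00, 3.48 and 3.41. Rebamipide replicate 1 lay between the controls and the other treated libraries. The table lists Gm49366 on the same strand over 9667 bases of Acot4 and 6470 bases of Acot3, with 0 counts in every library. The mean rose 8.16-fold, from 0.322 ± 0.0896 to 2.63 ± 1.41 FPKM (SD, n = 3), with a log2 fold change of 3.03 (SE 0.56, adjusted p = 0.0185). The edgeR call was lost without vehicle replicate 1 (adjusted p = 0.0584), vehicle replicate 2 (0.0951) or rebamipide replicate 2 (0.0793), with log2 fold changes of 2.97, 2.80 and 2.78.

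Acot3 (ENSMUSG00000021228, chr12:84098918-84107176, plus strand), a peroxisomal long-chain thioesterase, was almost absent, with 13, 3 and 0 counts in the vehicle libraries and 26, 20 and 29 counts in the rebamipide libraries. It passed the filter of 0.273 CPM in 1 vehicle library and 3 rebamipide libraries. Its log2 fold change of 3.04 (SE 1.07, adjusted p = 0.0879) did not pass edgeR's test, whereas DESeq2 (adjusted p = 0.0183) and limma-voom (adjusted p = 0.0471) called it. Leaving out 1 library in edgeR gave 2.49 (without vehicle replicate 3) to 4.72 (without vehicle replicate 1). Acot8 (ENSMUSG00000017307, chr2:164634685-164646802, minus strand), the peroxisomal thioesterase of broad range that also cuts bile acid and dicarboxylic acyl-CoAs, had 5.33, 3.84 and 3.93 FPKM in the vehicle libraries and 5.11, 8.33 and 7.80 FPKM in the rebamipide libraries. Rebamipide replicate 1 lay among the controls, and the other treated libraries lay above them. The log2 fold change was 0.70 (SE 0.30, adjusted p = 0.135), and without rebamipide replicate 1 it was 0.89 (adjusted p = 0.0489). Acot8 shares 1052 bases with Snx21 on the other strand, whose own counts were 614, 746 and 689 in vehicle and 654, 834 and 1070 in rebamipide, and reads of the overlap cannot be assigned without strand.

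Part of what separates the compartments lies at the ends of the coding sequence. Acot1 and Acot2 share 95.3% of 1236 aligned coding bases (GENCODE M21, GRCm38), and the coding sequence of Acot2 begins with 41 codons that Acot1 lacks, the stretch that carries the mitochondrial leader. The start of both coding sequences is shown, with the bases that Acot1 and Acot2 align over in capitals, of which 9 of 30 differ.
Acot2: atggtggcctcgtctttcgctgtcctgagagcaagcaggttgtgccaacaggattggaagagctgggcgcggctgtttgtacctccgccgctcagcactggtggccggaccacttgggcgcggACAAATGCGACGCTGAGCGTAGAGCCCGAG
Acot1: ATGGAGGCGACGCTGAACCTTGAGCCCTCG

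Peroxisomal enzymes carry their import signal in the last residues of the protein. The last coding bases before the stop codon are shown for the 3 peroxisomal members and for the cytosolic and mitochondrial relatives, with the final 3 codons in capitals.
Acot3: ggcaaaaagaagacaatcccaGCAAAACTG
Acot4: agtacccacagcagagcctccTGTAGACTG
Acot8: ttgaagcctcaggtgtcagagAGTAAGCTA
Acot1: agtgagtgtttgcatgtgtctCCTAAAATA
Acot2: ttcttccacaaacagttgggtAGCAAGAGT

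Of the 2 pairs of relatives compared, Acot1 and Acot2 changed places. The log2 ratio of Acot2 to Acot1, taken within each library per gene length and so free of scaling between libraries, was -0.86, -1.27 and -0.29 in the vehicle libraries and 2.25, 3.27 and 3.30 in the rebamipide libraries. Acot1 exceeded Acot2 in every control and Acot2 exceeded Acot1 in every treated library. The mean log2 ratio moved from -0.81 ± 0.497 to 2.94 ± 0.599 (SD, n = 3), a difference of 3.74. In ratio terms Acot2 went from 0.572 times to 7.66 times Acot1. The two-sided exact permutation p was 0.1, the smallest that 3 against 3 libraries allow, and 0.2 after adjustment over the 2 ratios tested. The log2 ratio of Acot3 to Acot4 differed by 1.11 (exact permutation p = 0.6), overlapped between groups and turned to -0.32 without vehicle replicate 3, which had 0 counts of Acot3. Of all 100-base windows in the Acot1 transcript 21.9% occur also in transcripts of other genes, as do 17.1% of those of Acot2, which it shares with Acot1 alone. How reads that match both genes were counted is not given in the sources used here, so the split between Acot1 and Acot2 is uncertain to that extent. Their summed counts were 1737, 1826 and 1331 in vehicle and 2072, 2861 and 2969 in rebamipide, a log2 fold change of 1.55 (SE 0.257, adjusted p = 0.0143).

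**Figure D3:**
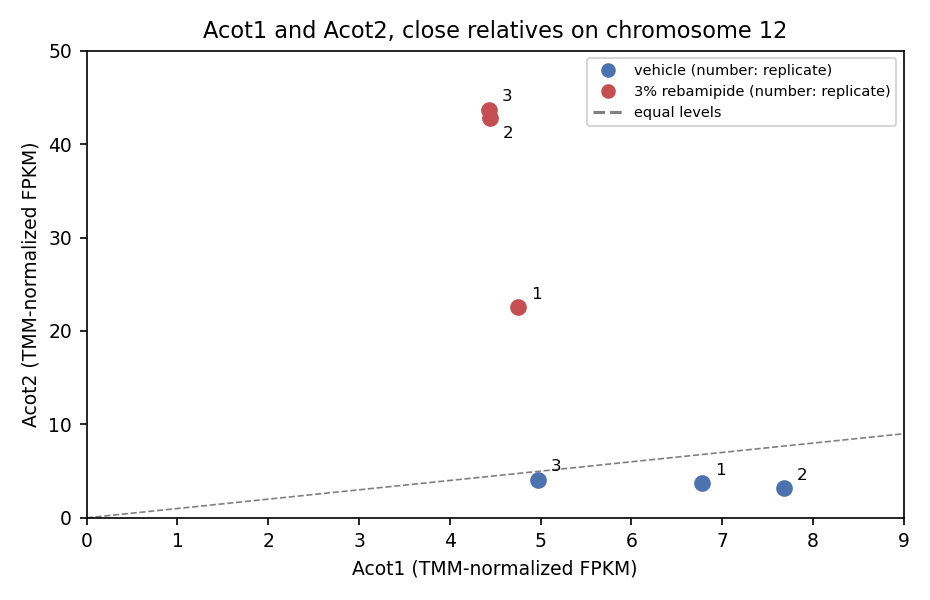
Acot2 against Acot1 in TMM-normalized FPKM, 1 point per library with its replicate number, and a dashed line where both levels are equal. The 3 vehicle libraries lie under the line and the 3 rebamipide libraries lie far above it, with Acot2 at 22.6 FPKM or more.

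The pair differ more before their start sites than in their coding sequence. Over the 250 bases before the start, RefSeq's promoters of Acot1 and Acot2 (GRCm38.p6) align over 221 bases with 55.2% identity. The last 100 bases before each start are shown, since these neighbours moved differently, and both lie on the plus strand.
Acot1, chr12:84009402-84009501: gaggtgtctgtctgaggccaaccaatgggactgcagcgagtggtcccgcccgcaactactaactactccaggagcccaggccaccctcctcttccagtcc
Acot2, chr12:83987761-83987860: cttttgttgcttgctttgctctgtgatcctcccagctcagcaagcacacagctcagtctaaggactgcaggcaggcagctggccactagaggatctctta

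A search for AGGTCA, the half-site that nuclear receptors of the PPAR group bind, on both strands of these 250 bases found it in 2 of the 11 RefSeq promoters of 9 members, those of Acot4 and Acot12, and in 14% of all 32851 promoters. The full repeat AGGTCANAGGTCA, which contains the half-site, was in 0 of the 11 and in 0.033% of all promoters. A match is a description of these letters and not a binding site. The half-sites, which read as the reverse complement on the strand shown, are in capitals, 13 and 110 bases before the start.
Acot4, chr12:84038349-84038378, plus strand: ggctcagccccgaagcaTGACCTttggccg
Acot12, chr13:91741399-91741428, plus strand: ctcgtaggacccTGACCTctcacctcctaa

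The members Acot1 to Acot4 are neighbours in a cluster of 6 thioesterase genes on chromosome 12, all on the plus strand within 123.5 kb as the table lists them. Along the chromosome the log2 fold changes were 3.31 for Acot2, -0.51 for Acot1, 3.03 for Acot4 and 3.04 for Acot3, followed by Acot5 and Acot6, which are not among the 10. Acot5, a peroxisomal relative, had a log2 fold change of -1.81 (SE 1.05, adjusted p = 0.24) with 0.521, 0.772 and 6.18 CPM in vehicle and 0.692, 1.05 and 0.382 CPM in rebamipide. Acot6 stood at 0.64 (SE 0.29, adjusted p = 0.153). Acot1, which did not rise, thus lies 15.6 kb from Acot2 and 20 kb from Acot4, the members of the cluster that did.

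**Figure D4:**
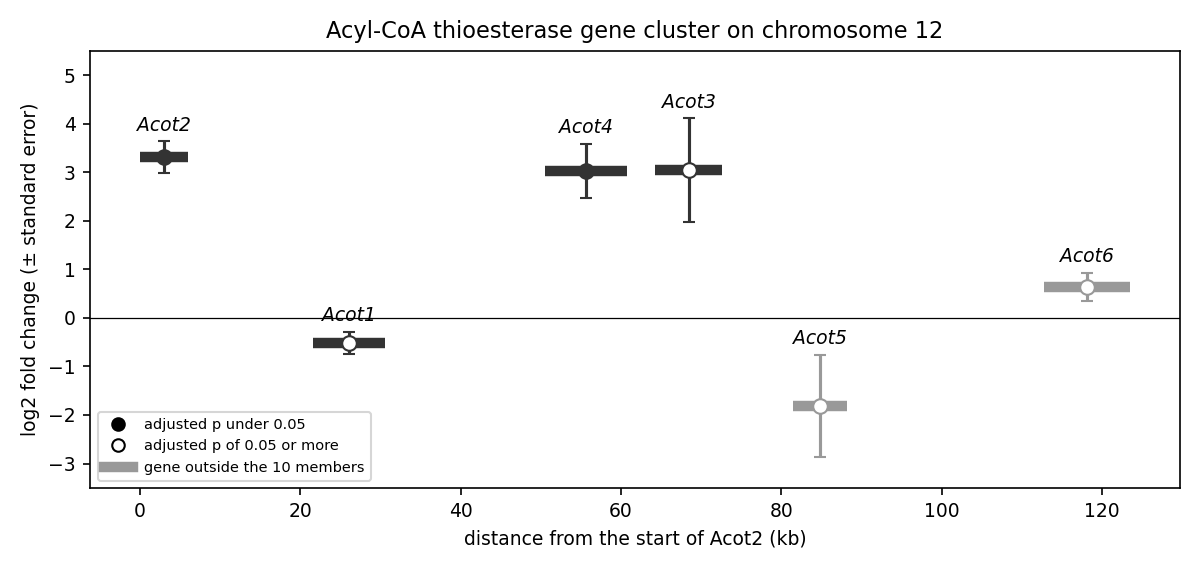
log2 fold change with its standard error for the 6 genes of the cluster on chromosome 12, placed by distance in kb from the start of Acot2, with bars as wide as each gene and filled points where the adjusted p-value was under 0.05. Acot2 and Acot4 are filled, and Acot1 between them is at -0.51.

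Summed over members, the family's level was 89.7, 78.1 and 82.1 FPKM in the vehicle libraries and 191.5, 281.3 and 280.2 FPKM in the rebamipide libraries, a 3.01-fold difference between the means of 83.3 ± 5.88 and 251.0 ± 51.5 FPKM (SD, n = 3). The mitochondrial sum differed 3.37-fold, the cytosolic sum 2.22-fold and the peroxisomal sum 2.11-fold at TMM scaling, each without overlap. The order depends on where Acot13 is placed, since with Acot13 counted as cytosolic the cytosolic sum differed 3.63-fold and the mitochondrial sum 2.24-fold. In the FPKM as deposited, without TMM scaling, the family and mitochondrial sums still did not overlap, whereas the cytosolic sums (39.2, 23.8 and 15.7 against 43.7, 38.3 and 31.4) and the peroxisomal sums (7.31, 5.05 and 5.25 against 5.91, 8.99 and 8.70) did.

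Shares of the family's summed FPKM within a library do not depend on scaling between libraries. Acot13 took 30.9% ± 5.69 of the family in vehicle and 48.3% ± 4.39 in rebamipide (SD, n = 3), and Acot9 fell back from 34.1% ± 3.67 to 14.3% ± 1.85. Acot11 went from 1.05% ± 0.113 to 13.2% ± 3.15 and Acot2 from 4.40% ± 0.497 to 14.2% ± 2.1. Acot7 went from 15.9% ± 8.60 to 4.00% ± 1.37, and Acot1 from 7.82% ± 1.90 to 1.88% ± 0.521. None of these 6 members overlapped between groups. The mitochondrial share was 59.4%, 70.1% and 78.9% in vehicle and 72.1%, 77.5% and 81.1% in rebamipide, so the groups overlapped. The peroxisomal share was 6.38%, 5.24% and 5.29% in vehicle and 3.32%, 4.28% and 4.11% in rebamipide, lower in all 3 treated libraries with a mean difference of -1.73 percentage points, or of -0.514 points with Acot13 left out of the sum. No test was run on shares, since they sum over chosen members.

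**Figure D5:**
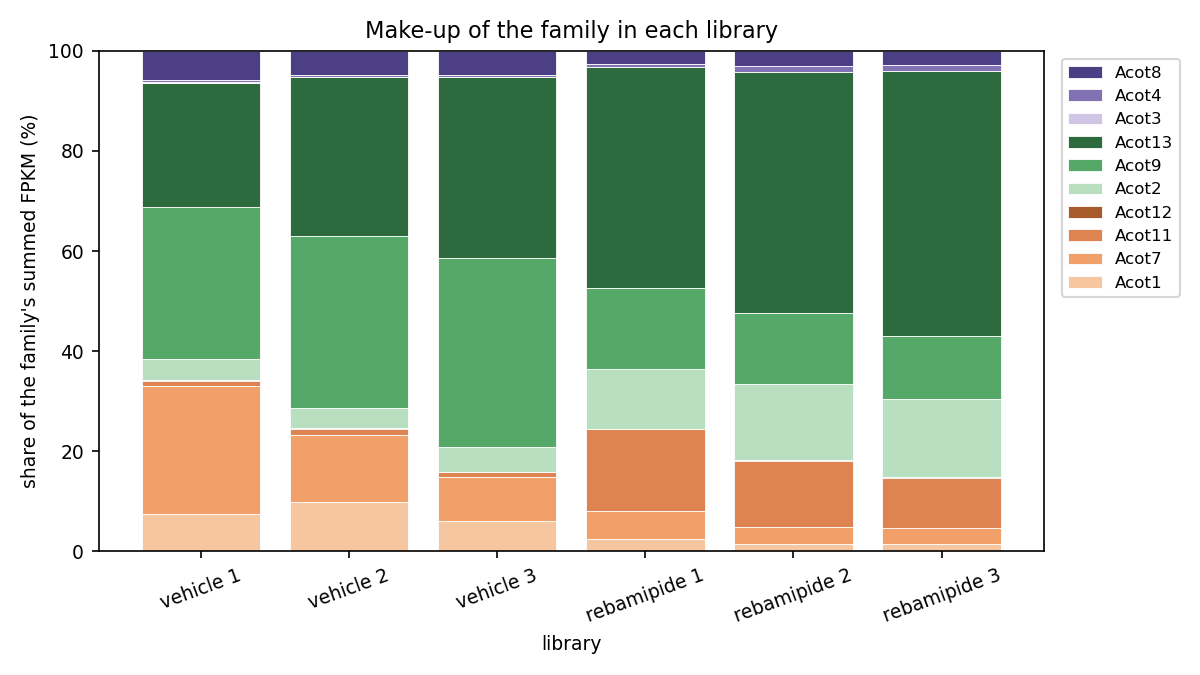
Share of the family's summed FPKM (%) taken by each of the 10 members in each library, with cytosolic members in orange, mitochondrial in green and peroxisomal in purple. Acot9 and Acot7 shrink and Acot13, Acot2 and Acot11 grow in all 3 rebamipide libraries.

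In FPKM order, vehicle skin was led by Acot9, Acot13 and Acot7, followed by Acot1, Acot8 and Acot2, and each of these overlapped with the next in the order. Acot11, Acot4 and then Acot12 and Acot3 came below, with clear gaps between Acot2, Acot11, Acot4 and Acot12. In rebamipide-treated skin Acot13 stood alone at the top, and Acot2, Acot9 and Acot11 followed at 36.4, 35.4 and 32.3 FPKM without separating from each other. Acot7, Acot8, Acot1 and Acot4 came next without overlap, and Acot3 and Acot12 stayed lowest.

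The pathways around the family were read from lists of genes. Of the other thioesterases and relatives 2 of 10 tested were higher and 0 lower, beside 14.1% and 6.51% of all genes, with a median log2 fold change of 0.28 and values in both directions, from 4.41 for Them7 to -2.54 for Them5 (adjusted p = 0.232). Mcat, which is a mitochondrial malonyl transferase rather than a thioesterase, rose by 1.69 (SE 0.24, adjusted p = 0.011). Them7, at 0 to 0.064 CPM in the vehicle libraries and 0.329 to 1.15 CPM in rebamipide, passed the filter through its rebamipide libraries alone and so had to differ. Ppt1, the lysosomal palmitoyl-protein thioesterase and the most abundant of the list, had a log2 fold change of -0.09 (SE 0.18, adjusted p = 0.734).

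Of the acyl-CoA synthetases, which make the substrate, 4 of 16 were higher and 2 lower, beside 14.1% and 6.51% of all genes, with a median log2 fold change of 1.05. Acsl1, the main long-chain synthetase of fat, muscle and liver, went from 326 ± 127 to 3971 ± 1704 CPM (log2 fold change 3.61, adjusted p = 0.0126), and Slc27a2, a very long-chain synthetase, was at 0 to 0.128 CPM in vehicle and 103 to 364 CPM in rebamipide, so that it passed the filter through its rebamipide libraries alone. Acsl4, which prefers arachidonic acid, fell by 1.35 (adjusted p = 0.0381) and Slc27a4, a fatty acid transporter of epidermis, fell by 1.12 (adjusted p = 0.0437) on the log2 scale. In edgeR and in limma-voom 0 of the 16 were lower without rebamipide replicate 3 or without vehicle replicate 3, where DESeq2 called 4 and 5 lower. The balance moved with the method, to 7 higher and 5 lower of 17 in DESeq2, 3 and 4 when edgeR used total counts, and 5 and 6 when limma used log2(FPKM + 1). Coenzyme A metabolism, which supplies and clears the other product, had 7 of 12 genes higher and 0 lower, with a median of 1.32. The shares of all genes were again 14.1% and 6.51%. Coasy, the last enzyme of coenzyme A synthesis, rose by 2.19 and Pank1, the rate-limiting kinase, by 2.95 (adjusted p = 0.00939 and 0.015), Slc25a42, the mitochondrial coenzyme A carrier, by 4.93 and Nudt19, a peroxisomal coenzyme A hydrolase, by 1.42 (0.00939 and 0.00993).

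Genes of fatty acid oxidation, which uses the same acyl-CoA pool, were mostly higher in both lists read, 1 for mitochondria and 1 for peroxisomes. Of the mitochondrial list, beta-oxidation and the carnitine shuttle, 19 of 21 genes were higher and 0 were lower, beside 14.1% and 6.51% of all genes. The median log2 fold change was 3.61, and Cpt1b reached the filter level in at most 1 vehicle library. Acaa2, the last thiolase of the cycle, rose by 4.37, Acadvl, the very long-chain dehydrogenase, by 4.45 and Acads, the short-chain dehydrogenase, by 3.78 (adjusted p = 0.00939 each). Cpt1a and Cpt1c, with log2 fold changes of -0.83 and -1.05, were not called (adjusted p = 0.167 and 0.107). Of the peroxisomal list 13 of 17 genes were higher and 0 were lower, beside the same shares of all genes, with a median of 1.73. Among them were Ehhadh at 4.37 and Ech1 at 3.59 (adjusted p = 0.00939 each). Crat, which turns short acyl-CoAs into carnitine esters, stood at 2.56 (0.00993). In edgeR the peroxisomal count was 8 without rebamipide replicate 3, 9 without vehicle replicate 1 and 9 with total counts alone, and the mitochondrial count was 19 in each of these. DESeq2 called 13 peroxisomal genes higher when either of those libraries was left out. With limma-voom the count was 10 without vehicle replicate 1 and 9 without rebamipide replicate 3.

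Of the PPAR receptors and partners 6 of 9 were higher and 0 lower, beside 14.1% and 6.51% of all genes, with a median log2 fold change of 2.30. Ppara, the receptor that several thioesterase genes answer to, rose from 6.25 ± 2.19 to 226 ± 83.5 CPM (log2 fold change 5.17, SE 0.48, adjusted p = 0.00939), with Ppargc1b at 3.72, Esrra at 2.27 and Pparg, the regulator of fat cells, at 2.73. Of 9 PPAR-alpha target genes tested 7 were higher and 0 lower, beside the same shares of all genes, with a median of 3.41. Among them were Plin5 at 6.73, Pdk4 at 4.42 and Angptl4 at 3.41 (adjusted p = 0.00939, 0.0101 and 0.0101). Among acyl-CoA and lipid binding partners 3 of 8 were higher, beside 14.1% of all genes, namely Dbi, the acyl-CoA binding protein, at 2.08, Acbd4 at 1.89 and Stard7 at 1.15, and 0 were lower, with a median of -0.05, whereas with total counts alone 2 were higher and 3 lower. For all 8 lists edgeR made 0 calls without vehicle replicate 2 and without rebamipide replicate 2. Without vehicle replicate 2, DESeq2 called 3 to 19 genes of each list higher and limma-voom 0 to 15. Without rebamipide replicate 2 these ranges were 2 to 19 and 0 to 15. The brown adipocyte and adipocyte sums were higher in every rebamipide library too, and their part in the lists' changes was not tested.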

How the data were processed

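Total RNA of 6 skin samples was enriched for poly-A RNA and sequenced. The authors deposited whole-number read counts per gene, not normalized, and FPKM values in 1 table with gene lengths and positions. The FPKM deposited by the authors equalled counts divided by gene length and library total, within 0.1%, for 100% of values. All 12 per-sample columns were matched to samples by name. The submitters' processing notes name fastp 0.22.0, HISAT2 2.1.0, HTSeq 0.9.1 and GRCm39, with no roles. The study's methods name DESeq2. The strand setting and the treatment of reads matching several genes are not given in the sources used here. Positions in the table were not mixed with GRCm38 sequences.

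The main test used edgeR 4.0.16 in R 4.3.3 (TMM, filterByExpr, quasi-likelihood test, Benjamini-Hochberg adjustment, threshold 0.05) on 14875 genes. TMM factors were 1.21 to 1.279 in vehicle and 0.746 to 0.929 in rebamipide libraries. Alternatives were RLE, upper-quartile and total-count scaling, no filter, at least 10 counts in every sample, DESeq2 1.42.0, limma-voom (limma 3.58.1), limma on log2(FPKM + 1) and log2(FPKM + 0.1), a fit with the replicate block, leaving out 1 library at a time, and Acot1 and Acot2 summed. DESeq2 and limma-voom with a library left out, and shares without Acot13, were added after seeing the data. Ratios were taken on counts per gene length with 0.5 added, since Acot3 was 0 in 1 library, where deposited FPKM ratios had been planned. Tests were checked on simulated counts. The limit of 3 counts covers counting error only. Each library is 1 mouse, and replicates within a group differed far beyond counting noise (chi-square over its degrees of freedom, 83.1 to 742.3).

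The members and all lists were chosen with earlier results of these data known. Named genes were all 10 members and, of each pathway list, the most abundant gene and up to 3 with the lowest p-values. Acot5, Acot6, Them5, Scd1, Elovl3, Zic1, Lep, Retn, Cfd, Itga6, Cpt1b, Gm49366, Acsl4, Slc27a4, Cpt1a, Cpt1c, Ucp1, Krt14, Krt5, Fam151a and Snx21 were named after their values were seen. Acot13 has no entry in the promoter table, and no table of proteins was used.

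Summed CPM of the remaining marker lists in vehicle and rebamipide libraries were 5675 to 28076 and 291 to 36001 for fast muscle. They were 839 to 5062 and 5.38 to 1326 for suprabasal keratinocytes and 12310 to 18767 and 1972 to 15795 for fibroblasts. Leukocytes had 497 to 1256 and 312 to 1049.8, and Schwann cells and nerve 227 to 488 and 199 to 365. The sebaceous list had 3244 to 14823 and 40146 to 110220, mostly Scd1, at 39046 to 108980 CPM in rebamipide. That list's median log2 fold change was -2.03, and 5 of its 8 genes were lower in every rebamipide library, beside 24% of all genes.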

Additional observations from a re-analysis of the deposited data

How the results depend on the processing

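The number of members called higher was 4 or 5 under every other scaling, filter and tool run, and 3 with Acot1 and Acot2 summed, where 8 members were tested. With each library left out in turn it ranged from 0 to 5 in edgeR, from 4 to 6 in DESeq2 and from 2 to 4 in limma-voom, the lowest numbers falling without vehicle replicate 2 (0 in edgeR), without rebamipide replicate 2 and, in DESeq2, also without rebamipide replicate 3. The number called lower was 0 except for 1 (Acot1) with total counts alone, with log2(FPKM + 1), with log2(FPKM + 0.1) and in DESeq2 without vehicle replicate 3 (range 0 to 1). Acot9 turned to -0.31 with total counts alone, -0.29 with log2(FPKM + 1) and -0.30 with log2(FPKM + 0.1). Acot7 ranged from -0.788 to 0.092 in edgeR with a library left out, and it turned to 0.092, 0.102 and 0.104 without vehicle replicate 1 in edgeR, DESeq2 and limma-voom. The mitochondrial share rose by 7.41 percentage points, or by 19.6 with Acot11 counted as mitochondrial, and it turned to -9.99 points with Acot13 counted as cytosolic and to -0.839 with Acot13 left out. It ranged from 2.40 to 12.1 points with a library left out. The peroxisomal share difference of -1.73 points was -0.514 without Acot13. The Acot3 to Acot4 log2 ratio difference ranged from -0.32 to 2.20 with a library left out. The cause of these shifts was not tested. The replicate block left 4 members called higher and 0 lower, with 1432 genes higher and 855 lower of all genes. Same-numbered libraries did not deviate together (correlations -0.016, -0.038 and 0.003), so the numbers do not pair the samples. Depth limits Acot3 and Acot12, which had at most 29 counts in any library.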
